A study of Homo sapiens with 6 samples.

Results

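The genes described here were 43 mesenchymal, actomyosin and matricellular genes of the kind that the EWSR1-FLI1 fusion usually represses, picked by symbol from the 60676 genes of the count table, and each symbol was found on a single row. The RNA came from TC71, an EWS cell line with an EWSR1-FLI1 fusion, in stable polyclonal derivatives that carry a Dox-inducible lentiviral shRNA and GFP construct. One derivative expressed a non-targeting shRNA (shNTC+Dox) and the other an EHD1-specific shRNA (shEHD1+Dox), with 3 libraries of each. Both groups received Dox at 0.5 µg/ml for 3 days, so Dox, construct and puromycin selection were shared, and libraries of cells without Dox were not analysed here. EHD1-KD, other effects of the shRNA and differences between the derivatives go together in this comparison and cannot be told apart. Below, genes that rose or fell were higher or lower in shEHD1+Dox than in shNTC+Dox. The sources used here do not say which of the EHD1 shRNAs the group labelled 1-3 carried, nor whether its replicates were separate cultures, so p-values measure only the spread between these libraries, which may be technical. The question asked was which of these genes differed in RNA level between EHD1-KD and control EWS cells.

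EWSR1-FLI1 is a fusion transcription factor that activates some genes through GGAA repeats and lowers others, among them genes for actin filaments, focal adhesions and matrix that mesenchymal cells use to spread and migrate. Many of the genes in that repressed program are also targets of serum response factor (SRF) with its actin-sensing coactivators, of the TGF-beta pathway or of the ZEB, SNAI and TWIST families of transcription factors. EHD1 is an ATPase of the endocytic recycling compartment that returns internalized cell surface receptors to the plasma membrane.

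The libraries held 22711235 to 28203023 counts in shNTC+Dox and 24150135 to 30582187 in shEHD1+Dox. EHD1 itself was at 27.1, 28.0 and 26.4 CPM (TMM-scaled counts relative to library size) in shNTC+Dox and at 7.55, 7.15 and 9.37 CPM in shEHD1+Dox, a log2 fold change of -1.76 ± 0.12 (SE, n = 3 per group, adjusted p = 1.35e-04), in the direction the labels give. shNTC+Dox replicate 3 stood apart from its group: the chi-square per degree of freedom of its counts against the other control libraries was 23.7 and 25.1, against 5.27 between those libraries, while every pair across the groups lay between 29.8 and 58.0. shEHD1+Dox replicate 2 also stood apart, though by less, at up to 16.9 from the other shEHD1+Dox libraries, against 7.39 between those. Values without shNTC+Dox replicate 3 are given for the members whose call that library changed. Of the marker lists for other cells, all 4 endothelial markers had 3 counts or fewer in every library and the leukocyte markers summed to at most 0.582 CPM, with CD3E at 0. Markers of mesenchymal stroma summed to 274 to 371 CPM in shNTC+Dox and 477 to 538 CPM in shEHD1+Dox, of which COL3A1, a fibrillar collagen, took 194 ± 20.8 and 359 ± 29.0 CPM (SD, n = 3), while POSTN was at 0 in all 6 libraries. In bulk RNA, fewer cells of a type and less RNA per cell cannot be told apart, and the part of these markers in the results was not tested.

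With all 6 libraries, most of the mesenchymal genes differed little between groups, and those that passed the test were mainly higher in shEHD1+Dox. Together the 43 genes took 0.468% to 0.481% of the counts in shNTC+Dox and 0.528% to 0.535% in shEHD1+Dox. Counts were sufficient to test 34 of them (at least 10 counts in at least 3 libraries). By edgeR's quasi-likelihood test with Benjamini-Hochberg adjustment over all 16785 genes tested, 7 of the 34 rose (ACTN1, CNN3, FLNA, VCL, SPARC, FOXO3 and ZEB1), as did 8.59% of all genes tested, and 2 fell (TGFBR2 and PRRX1), as did 8.75% of all genes. The 9 genes that passed were 26.5% of those tested, against 17.3% in either direction for all genes. Only ZEB1 and PRRX1 also differed by at least 2-fold, which 2.82% of all genes did, 1.08% upwards and 1.74% downwards.

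The shift across the tested members was small. Their median log2 fold change was 0.15, against 0.00 over all genes, and 22 of the 34 were above 0, as were 50.1% of all genes. The groups did not overlap at all for 14 genes that were higher in shEHD1+Dox (19.9% of all genes) and 6 that were lower (19.4% of all genes). By role, 10 of the 12 tested genes for actin filaments, intermediate filaments and focal adhesion were above 0, with a median of 0.19. Of these 10, VIM, TPM4, ZYX and ACTA2 had log2 fold changes smaller than their standard errors. ZYX and ACTA2 were at -0.08 and -0.04 without shNTC+Dox replicate 3. The 8 tested transcription factors were split 4 to 4, with a median of -0.04, and FOXO1 was also within its standard error. No test of the difference between these role groups was made.

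**Figure D1:**
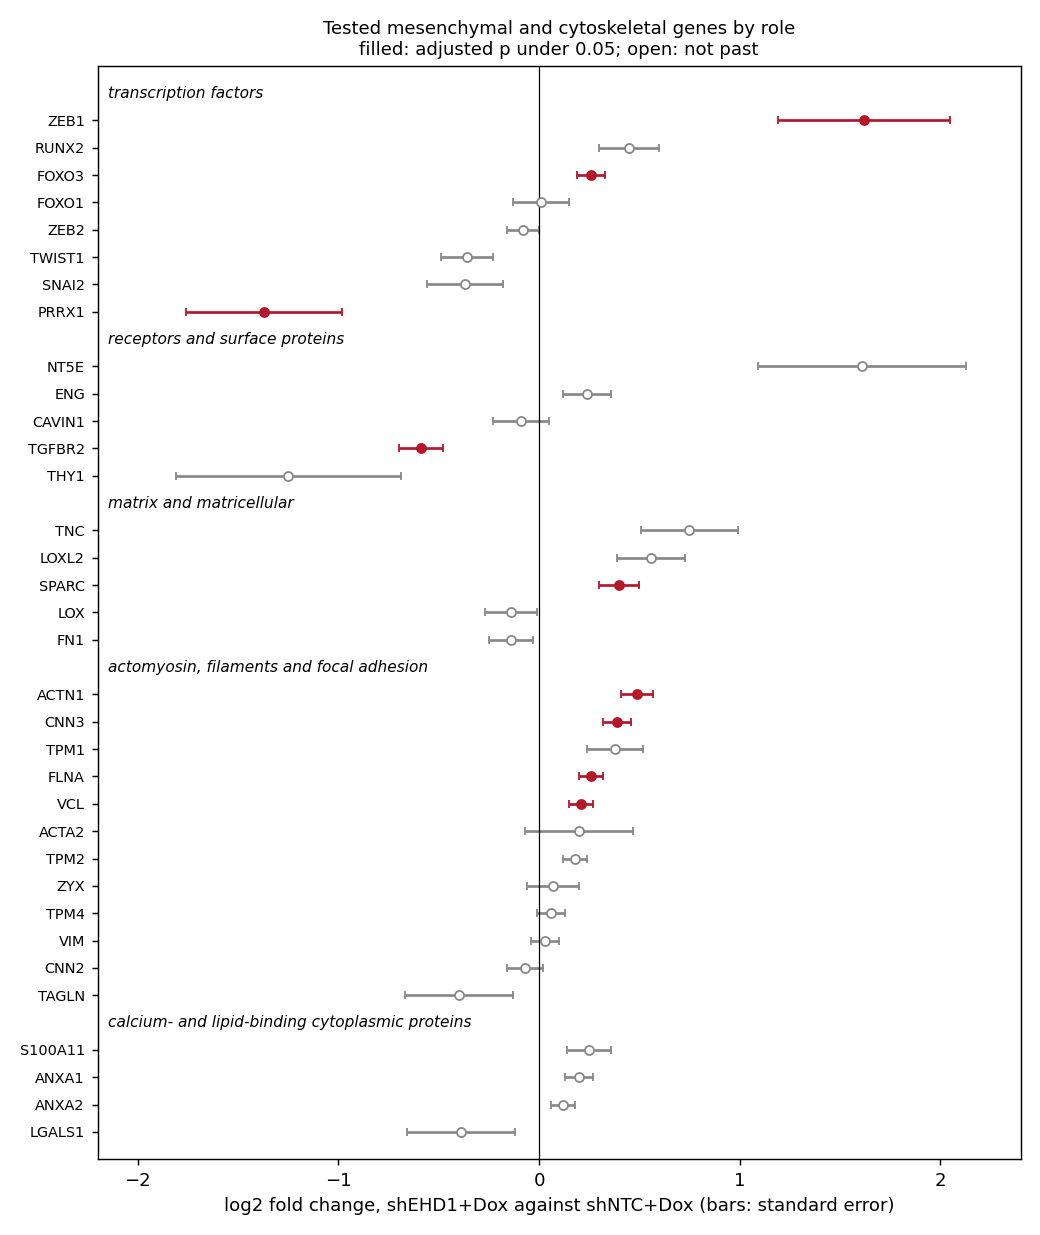
Log2 fold change of shEHD1+Dox against shNTC+Dox for the 34 tested genes, grouped by role, with bars of 1 standard error. Filled red points passed an adjusted p of 0.05. ZEB1 at 1.62 and PRRX1 at -1.37 lay farthest from 0 among the genes that passed, and the filled points of the cytoskeletal group lay between 0.21 and 0.49.

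Low levels in TC71, as the name of a repressed program would have it, were not seen for every gene. Levels of different genes were compared as CPM per kilobase of exon. In shNTC+Dox, 19 of the 43 genes were above the median of the tested genes and 8 were above the 90th percentile. VIM, the intermediate filament protein vimentin and a common mesenchymal marker, was the most abundant, with 42271, 45910 and 38863 counts in shNTC+Dox and 50344, 40914 and 52148 counts in shEHD1+Dox. Its level was 322 ± 13.1 CPM per kilobase in shNTC+Dox (SD, n = 3), higher than in 99.5% of tested genes, and the groups overlapped (log2 fold change 0.03 ± 0.07 SE, adjusted p = 0.777). S100A11, a calcium-binding protein, was next at 145 ± 24.3 CPM per kilobase. It was followed by TPM2, a tropomyosin that lies along actin filaments, at 64.5 ± 1.79 CPM per kilobase.

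Below S100A11, many neighbours in the order of levels overlapped. TPM2, SPARC, LGALS1 and FLNA lay between 57.6 and 64.5 CPM per kilobase, where each range overlapped the next but TPM2 (62.5 to 65.9) lay above FLNA (56.9 to 58.5), and TPM4, CNN3, CNN2, ZYX, VCL and ENG lay between 17.5 and 23.6 with each range overlapping the next. With the length of the canonical transcript in place of all exons, VIM stayed first, at 774 CPM per kilobase, but ANXA2 came second at 237 and S100A11 was at 167, next to TPM2 at 173. No cells other than EWS cells were among the libraries, so repression relative to another cell type could not be examined.

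Other members were at or near background. CD44, the hyaluronan receptor, DKK1, a secreted inhibitor of WNT signaling, S100A6, TGFBI and TWIST2 had 0 counts in all 6 libraries, which allows up to 3 counts, or 0.132 CPM in the smallest library. MYL9, the regulatory light chain of smooth muscle myosin, had 0 counts in every shNTC+Dox library and 2, 3 and 0 in shEHD1+Dox, also within 3 counts. CALD1, the actin- and myosin-binding caldesmon, had 5 counts in a single library of each group. CNN1, the smooth muscle calponin, had 5, 0 and 0 counts in shNTC+Dox and 14, 15 and 5 counts in shEHD1+Dox, too few to be tested. THBS1, the matricellular thrombospondin 1, had 10, 5 and 7 counts against 0, 6 and 3. Differences in these 9 genes were not detectable at this depth.

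**Figure D2:**
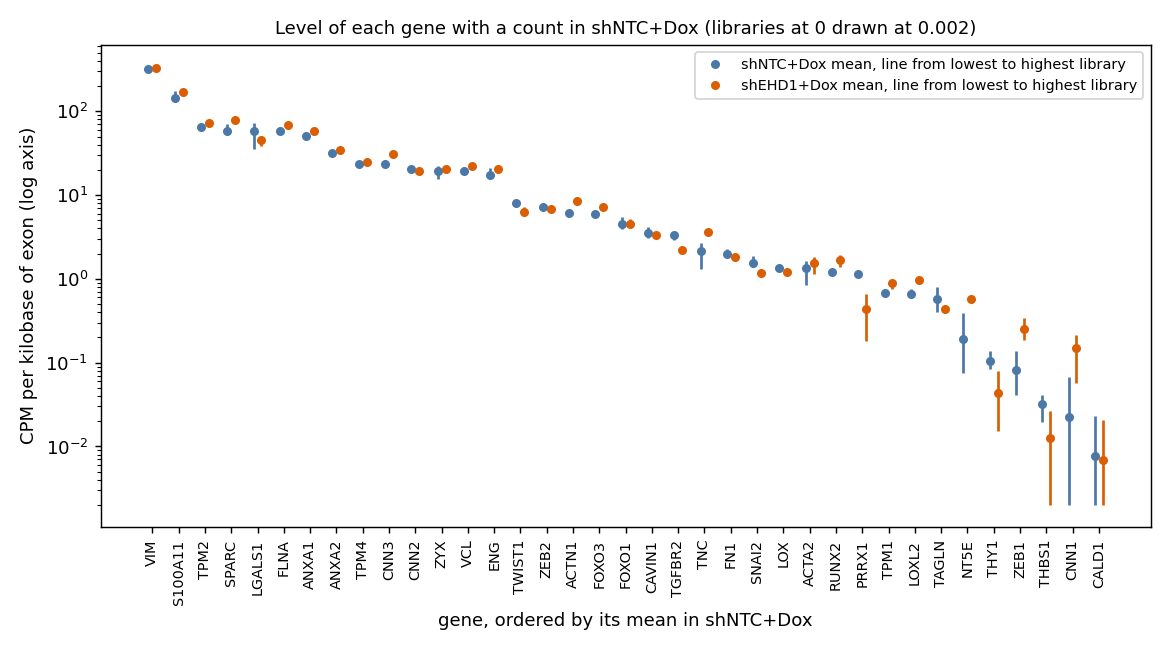
Level in CPM per kilobase of exon (log axis) of each member with a count in shNTC+Dox, ordered by its shNTC+Dox mean. Points are means of 3 libraries, lines run from the lowest to the highest library, and libraries at 0 are drawn at 0.002. The genes range from VIM at 322 to CALD1 at 0.00763 in shNTC+Dox.

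Among the cytoskeletal genes, 4 of 12 tested rose and none fell (8.59% and 8.75% of all genes), with 3 more too low to test. ACTN1 (ENSG00000072110, chr14:68874128-68979440, minus strand, GRCh38) encodes alpha-actinin 1, which crosslinks actin filaments and ties them to adhesions. Its level was 91.8, 92.1 and 77.5 CPM in shNTC+Dox and 123, 126 and 119 CPM in shEHD1+Dox. All 3 shEHD1+Dox libraries were higher than every control, and the log2 fold change was 0.49 ± 0.08 (SE, adjusted p = 0.00494). CNN3 (ENSG00000117519, chr1:94896949-94927223, minus strand), a non-muscle calponin that binds actin, was at 63.2, 68.9 and 62.4 CPM and at 86.1, 87.1 and 82.4 CPM. The groups did not overlap and the log2 fold change was 0.39 ± 0.07 (adjusted p = 0.00672).

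FLNA and VCL rose by less. FLNA (ENSG00000196924, chrX:154348524-154374634, minus strand) encodes filamin A, a large crosslinker of actin networks, and was at 635, 623 and 618 CPM in shNTC+Dox against 754, 763 and 724 CPM in shEHD1+Dox. The groups were apart, with a log2 fold change of 0.26 ± 0.06 (adjusted p = 0.0256). VCL (ENSG00000035403, chr10:73995193-74121363, plus strand) encodes vinculin, which links integrin adhesions to actin, and was at 189, 192 and 195 CPM against 214, 232 and 219 CPM. These groups were also apart, with a log2 fold change of 0.21 ± 0.06 (adjusted p = 0.0487). Of the exon bases of VCL, 1109 are shared with AP3M1 on the opposite strand, and the library kit does not keep strand, so reads there could belong to either gene.

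Only ACTN1 and CNN3 of these 4 passed with each of the 6 libraries left out in turn, with adjusted p of at most 0.0262 and 0.0367. FLNA was not past without shNTC+Dox replicate 1 (adjusted p = 0.0770) or 2 (0.0860), or without shEHD1+Dox replicate 1 (0.102) or 3 (0.0678). Its adjusted p ranged from 2.06e-04 to 0.102 over the alternatives that test for any change. VCL passed only without shNTC+Dox replicate 3 (adjusted p = 0.0276) and was between 0.0832 and 0.149 without any of the other 5 libraries. Its range was 0.0138 to 0.149 over the alternatives that test for any change.

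The other 8 tested cytoskeletal genes did not pass. TPM2 was at 207, 199 and 210 CPM in shNTC+Dox and 235, 223 and 241 CPM in shEHD1+Dox, which did not overlap (log2 fold change 0.18 ± 0.06, adjusted p = 0.0807). Without shNTC+Dox replicate 3 it was at 0.20 and passed (adjusted p = 0.0453, within 0.0403 to 0.246 over the alternatives). TPM1, another tropomyosin, had a log2 fold change of 0.38 ± 0.14 and overlapping groups (adjusted p = 0.0947). The values of ACTA2 (alpha smooth muscle actin), TPM4, ZYX (zyxin, of focal adhesions), VIM and CNN2 lay between -0.07 and 0.20, all with overlapping groups. TAGLN, the actin-binding transgelin of smooth muscle, was the lowest at -0.40 ± 0.27, with replicate 1 of shNTC+Dox at 5.28 CPM and the other 5 libraries between 2.58 and 3.4 CPM. Shared exons make TPM1, ACTA2, TAGLN and VIM uncertain, since 22.7%, 36.2%, 47.8% and 24.6% of their exon bases also belong to other genes.

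**Figure D3:**
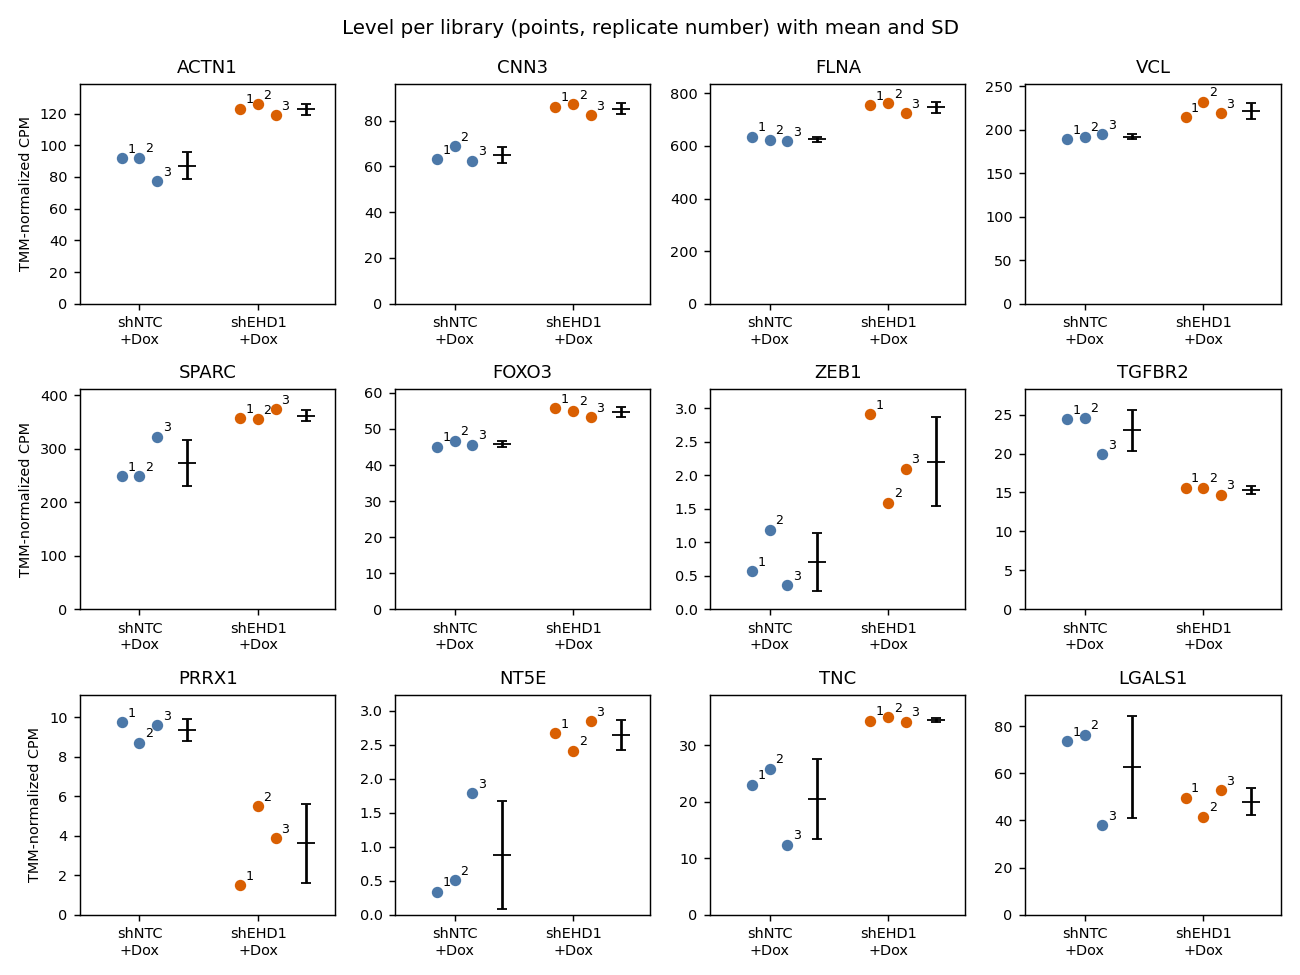
TMM-normalized CPM in each library for the 9 genes that passed the test and for NT5E, TNC and LGALS1, with points marked by replicate number and bars for mean and SD (n = 3). In ACTN1, CNN3, FLNA, VCL, SPARC, FOXO3 and ZEB1 every shEHD1+Dox library lay above every shNTC+Dox library, and in TGFBR2 and PRRX1 below. Replicate 3 of shNTC+Dox lay away from the other 2 controls in NT5E, TNC and LGALS1.

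A CArG box, the sequence that SRF binds, was found in the promoters of some of these actin genes. RefSeq promoter windows (GRCh38.p14, 250 bases before to 50 after each start) were found for 35 of the 43 genes, some with several starts. A CArG box on either strand occurred in 4 of these 35 genes (11.4%), against 1.60% of all 27305 genes with a window and 1.48% of those tested for expression. Since members had 59 windows in all, the share per window was also taken, at 6.78% for members and 1.29% for all genes. All 4 were genes of actin filaments. The stretches of 50 bases around each match are shown, with the CArG box in capitals and the gene strand read 5′ to 3′, because ACTN1 and FLNA, which rose, are among them:
ACTN1: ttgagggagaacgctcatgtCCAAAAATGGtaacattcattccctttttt
CNN2: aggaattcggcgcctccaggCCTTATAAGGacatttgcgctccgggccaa
FLNA: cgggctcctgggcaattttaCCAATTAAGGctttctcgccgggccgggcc
TPM4: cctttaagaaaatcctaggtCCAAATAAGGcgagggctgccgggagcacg
They lie at chr14:68977708-68977757 (minus strand), chr19:1026499-1026548 (plus), chrX:154374699-154374748 (minus) and chr19:16067345-16067394 (plus). The box of ACTN1 lay in the window of an internal start (chr14:68977517-68977816). It was not found in the window that spans the 5′ end of ACTN1 (chr14:68979253-68979552). ACTN1 and FLNA were among the genes that rose, while CNN2 (log2 fold change -0.07 ± 0.09, adjusted p = 0.613) and TPM4 (0.06 ± 0.07, adjusted p = 0.556) were not past the test.

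The other motifs were found in members of several roles. GGAATG, of TEAD factors, occurred in 11 of the 35 genes (31.4%), against 16.7% of all genes and 14.7% of those tested. Of the 11, 6 were among the 9 that passed the test, but a gene with several starts has more windows in which to match. Per window the share of GGAATG was 20.3% for members, against 14.0% for all genes. TGACTCA, of AP-1, occurred in 4 members (11.4%, against 6.05% of all genes, and 6.78% against 4.95% per window), and GGAAGGAA, a short ETS repeat, in 3 (8.57%, against 4.5%, and 5.08% against 3.67% per window). The E-box CAGGTG occurred in LOX and ZEB1 (5.71%, against 24.1% of all genes), GTCTAGAC, of SMAD factors, in no member (against 0.256%), and GGGCGG, of Sp and KLF factors, in 30 (85.7%, against 48.3% of all genes and 75.5% of those tested). A match is a run of letters in these windows and was not measured as a binding site.

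The transcription factors changed in both directions. ZEB1 (ENSG00000148516, chr10:31318495-31529814, plus strand), a zinc finger repressor of epithelial genes, had 15, 33 and 8 counts in shNTC+Dox and 83, 39 and 65 counts in shEHD1+Dox. The groups did not overlap, and the level of 0.707 ± 0.433 CPM became 2.2 ± 0.666 CPM (SD, n = 3), a log2 fold change of 1.62 ± 0.43 (SE, adjusted p = 0.0348). The counts were low, and ZEB1 passed without shNTC+Dox replicate 2 (adjusted p = 0.0139) or 3 (0.0362) but not without shNTC+Dox replicate 1 (0.0984) or shEHD1+Dox replicate 1 (0.124), 2 (0.0522) or 3 (0.0918), with log2 fold changes from 1.32 to 2.22. The adjusted p of ZEB1 ranged from 0.00844 to 0.124 over the alternatives that test for any change. It was not tested when 10 counts were asked of every library, since control replicate 3 held 8. Its paralog ZEB2 was far more abundant, at 7.29 ± 0.275 CPM per kilobase in shNTC+Dox against 0.0817 ± 0.0501 for ZEB1, and overlapped between groups (log2 fold change -0.08 ± 0.08, adjusted p = 0.496).

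PRRX1 (ENSG00000116132, chr1:170662728-170739421, plus strand), a homeobox factor of limb and craniofacial mesenchyme, moved the opposite way. It was at 9.73, 8.7 and 9.58 CPM in shNTC+Dox and 1.51, 5.48 and 3.88 CPM in shEHD1+Dox. All shEHD1+Dox libraries were below every control, though spread over a wide range, and the log2 fold change was -1.37 ± 0.39 (adjusted p = 0.0472). PRRX1 was not past without any one control library (adjusted p = 0.108, 0.0913 and 0.141 without replicates 1, 2 and 3) or without shEHD1+Dox replicate 3 (0.122), while it passed without shEHD1+Dox replicate 1 (0.0252) or 2 (0.0283). Its adjusted p ranged from 0.00128 to 0.141 over the alternatives that test for any change.

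FOXO3 (ENSG00000118689, chr6:108559835-108684774, plus strand), a forkhead factor held out of the nucleus by AKT, was at 45.1, 46.7 and 45.6 CPM in shNTC+Dox and 55.7, 55.1 and 53.2 CPM in shEHD1+Dox. The groups were narrow and apart, with a log2 fold change of 0.26 ± 0.07 (adjusted p = 0.0288). FOXO3 passed only without shNTC+Dox replicate 3 (adjusted p = 0.0189) and lay between 0.0603 and 0.114 without any of the other 5 libraries. Its adjusted p ranged from 0.0117 to 0.114 over the alternatives that test for any change. FOXO1, its relative, had a log2 fold change of 0.01 ± 0.14 and overlapping groups. Of the exon bases of FOXO1, 22.7% also belong to a non-coding gene on the same strand, which makes its counts uncertain.

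Of the remaining factors, RUNX2, the regulator of bone formation, was at 9.92, 9.17 and 10.8 CPM against 11.5, 16 and 13.4 CPM, apart but not past the test (log2 fold change 0.45 ± 0.15, adjusted p = 0.0640). It passed without shNTC+Dox replicate 3 (0.51, adjusted p = 0.0359, within 0.0359 to 0.171 over the alternatives). TWIST1 and SNAI2, which act in neural crest and in the transition to a mesenchymal state, were lower in every shEHD1+Dox library, at log2 fold changes of -0.36 ± 0.13 (adjusted p = 0.0794) and -0.37 ± 0.19 (adjusted p = 0.206), and neither passed.

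TGFBR2 was the only receptor that passed. TGFBR2 (ENSG00000163513, chr3:30606601-30694142, plus strand) is the type II receptor that binds TGF-beta and activates the type I receptor, and it was at 24.4, 24.6 and 19.9 CPM in shNTC+Dox and 15.6, 15.6 and 14.7 CPM in shEHD1+Dox. Every shEHD1+Dox library was lower, with a log2 fold change of -0.59 ± 0.11 (adjusted p = 0.00847). It passed with each library left out, with adjusted p of at most 0.0471, and its exons are shared with no other gene. ENG (endoglin), a TGF-beta coreceptor, had a log2 fold change of 0.24 ± 0.12 and overlapping groups (adjusted p = 0.212), and was at 0.40 without shNTC+Dox replicate 3 (adjusted p = 0.00266). CAVIN1, a coat protein of caveolae, was at -0.09 ± 0.14 (adjusted p = 0.699).

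NT5E (ENSG00000135318, chr6:85449584-85495791, plus strand) encodes CD73, the surface enzyme that makes adenosine from AMP. It had 9, 14 and 40 counts in shNTC+Dox and 76, 59 and 88 counts in shEHD1+Dox. The groups did not overlap, but control replicate 3 lay between the other controls and shEHD1+Dox, and the log2 fold change of 1.61 ± 0.52 did not pass (adjusted p = 0.0691). Without that library it was 2.62 (adjusted p = 4.14e-04), and the adjusted p ranged up to 0.168 over the alternatives. THY1, the surface glycoprotein CD90, had 25, 18 and 13 counts against 3, 6 and 17, and its log2 fold change of -1.25 ± 0.56 did not pass (adjusted p = 0.160). Its lowest control and its highest shEHD1+Dox library were almost level, at 0.582 and 0.549 CPM.

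Of the matrix and matricellular genes, 1 of 5 tested rose and none fell, a share near the 17.3% of all genes called in either direction. SPARC (ENSG00000113140, chr5:151661096-151686975, minus strand), a secreted collagen-binding glycoprotein, was at 249, 249 and 323 CPM in shNTC+Dox and 357, 355 and 374 CPM in shEHD1+Dox. The groups did not overlap, with control replicate 3 nearest to shEHD1+Dox, and the log2 fold change was 0.40 ± 0.10 (adjusted p = 0.0306). SPARC passed only without that library (0.54, adjusted p = 2.93e-04) and lay between 0.0708 and 0.103 without any of the other 5.

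TNC (ENSG00000041982, chr9:115019575-115118207, minus strand), the matricellular tenascin C, was at 23.0, 25.8 and 12.4 CPM against 34.3, 34.9 and 34.1 CPM. Here control replicate 3 was the lowest library, and the log2 fold change of 0.75 ± 0.24 did not pass (adjusted p = 0.0688). Without it the value was 0.50 and passed (adjusted p = 0.00253), as it did without control replicate 2 (0.95, adjusted p = 0.0412), within a range of 0.00253 to 0.159 over the alternatives. LOXL2, a collagen-crosslinking amine oxidase, was at 3.72, 4.55 and 3.54 CPM against 5.55, 5.72 and 6.2 CPM, higher in every shEHD1+Dox library but just short of the threshold (log2 fold change 0.56 ± 0.17, adjusted p = 0.0506). LOX, the founding enzyme of that family, and FN1 (fibronectin) were each at -0.14 on the log2 scale and not past the test.

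None of the 4 tested calcium- and lipid-binding proteins passed. ANXA1 and ANXA2, annexins that bind membranes in the presence of calcium, were higher in every shEHD1+Dox library, by 0.20 ± 0.07 (adjusted p = 0.0696) and 0.12 ± 0.06 (adjusted p = 0.196) on the log2 scale. ANXA2 has processed pseudogenes of near-identical sequence, which makes its counts uncertain. S100A11 was at 84.6, 85.2 and 112 CPM in shNTC+Dox and 110, 115 and 109 CPM in shEHD1+Dox, and the groups overlapped through control replicate 3 (log2 fold change 0.25 ± 0.11, adjusted p = 0.159, and 0.39 with adjusted p = 0.00176 without that library). LGALS1 (ENSG00000100097, chr22:37675636-37679802, plus strand), the galactoside-binding galectin 1, was at 73.6, 76.4 and 37.9 CPM against 49.6, 41.6 and 52.8 CPM. Its log2 fold change of -0.39 ± 0.27 did not pass (adjusted p = 0.379), but was -0.64 without control replicate 3 (adjusted p = 0.00153).

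Control replicate 3 decided several of these calls. Without it, 13 genes were higher and 2 lower past the test, with 11.4% and 10.5% of all genes in each direction. NT5E, TNC, S100A11, TPM2, ENG and RUNX2 were then added to the higher genes and LGALS1 to the lower, while PRRX1 was lost. LGALS1, S100A11 and ENG had an adjusted p between 0.259 and 0.661 when any other library was left out. The log2 CPM of the tested genes, set against each gene's mean over the 6 libraries, had a median of -0.07, -0.05 and -0.06 in shNTC+Dox replicates 1, 2 and 3 and 0.05, 0.08 and 0.09 in shEHD1+Dox, so by this measure replicate 3 lay with its own group.

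**Figure D4:**
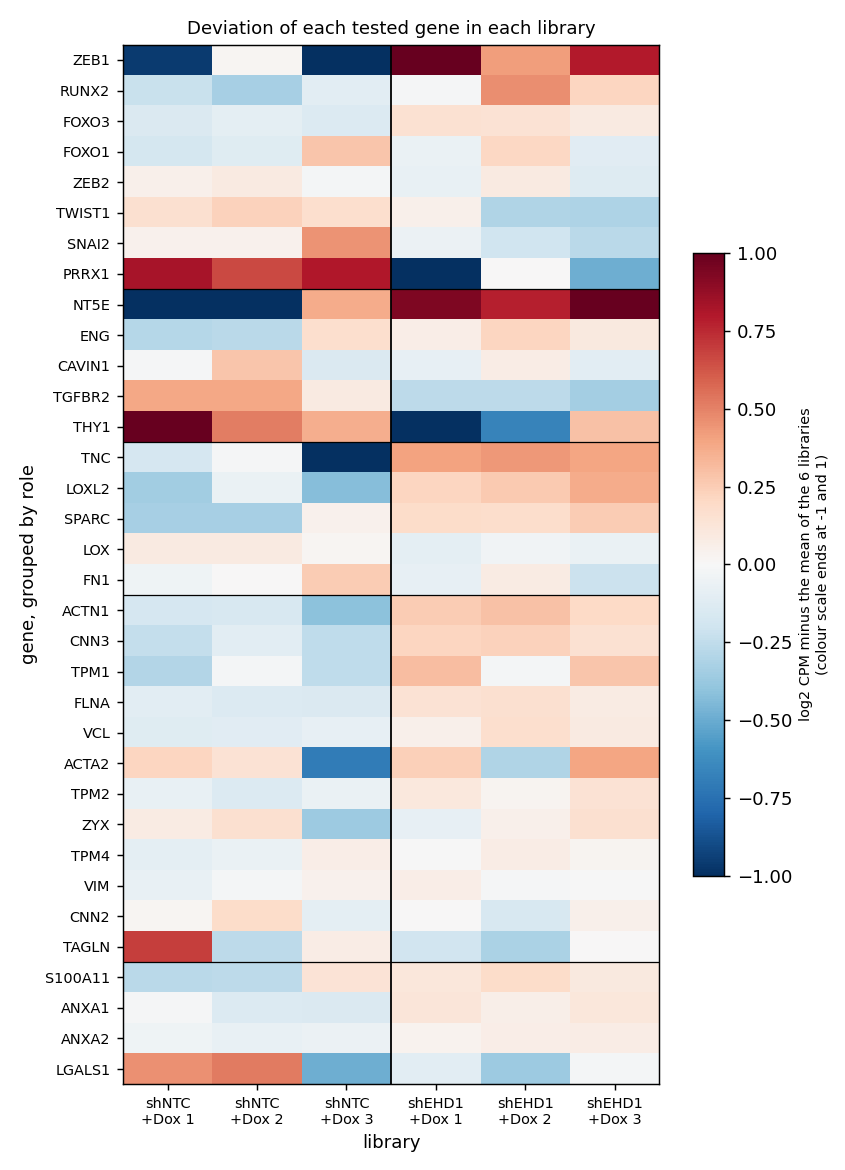
Log2 CPM of each tested gene in each library minus the mean of the 6 libraries, with colours ending at -1 and 1, genes grouped by role and the black vertical line between shNTC+Dox and shEHD1+Dox. ACTN1, CNN3 and FLNA are blue in all 3 controls and red in all 3 shEHD1+Dox libraries, whereas shNTC+Dox replicate 3 departs from the other controls in LGALS1, TNC, NT5E and ACTA2.

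The wider pathways around these genes were also mixed in direction. In the TGF-beta pathway outside the 43 genes, 4 of 28 tested genes rose and 2 fell, with a median log2 fold change of -0.05. These were 21.4% of the list, near the 17.3% of all genes called in either direction (8.59% higher and 8.75% lower). TGFB1, the ligand of TGFBR2, rose from 134 ± 19.9 to 194 ± 10.8 CPM (SD, n = 3, log2 fold change 0.54 ± 0.10 SE, adjusted p = 0.00996), and ID2, a helix-loop-helix inhibitor, fell from 114 ± 12.7 to 46.0 ± 3.28 CPM (-1.30 ± 0.10, adjusted p = 1.55e-04). Both passed with any library left out. LTBP3 and LTBP1, binding proteins of latent TGF-beta, changed by 0.29 (adjusted p = 0.0275) and -0.37 (adjusted p = 0.0468). LTBP3 and LTBP1 passed only without shNTC+Dox replicate 3 (adjusted p = 0.0214 and 0.0152), with adjusted p up to 0.117 and 0.155 without any of the others.

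Among other SRF, MRTF and contractile genes, 4 of 37 tested rose and 4 fell, with a median of -0.05. These were 21.6% of the list, near the 17.3% of all genes called in either direction. ROCK1, the kinase that acts downstream of RHOA to drive contraction, rose from 74.5 ± 1.48 to 109 ± 11.2 CPM (log2 fold change 0.55 ± 0.08, adjusted p = 0.00315). PDLIM5, a PDZ and LIM domain protein that binds alpha-actinin, rose by 0.33 (adjusted p = 0.0175) and RHOA by 0.22 (adjusted p = 0.0435), of which PDLIM5 was not past without shEHD1+Dox replicate 3 (0.0648) and RHOA passed only without shNTC+Dox replicate 3 (0.0320) or shEHD1+Dox replicate 2 (0.0433), with adjusted p up to 0.156 without any of the others. RND3, a GTP-binding protein that inhibits ROCK1, was at 3.19, 4.05 and 3.85 CPM in shNTC+Dox and 0.457, 0.368 and 0.258 CPM in shEHD1+Dox. It fell by 3.35 on the log2 scale (adjusted p = 2.69e-04), a change larger than that of any of the 34 tested members. CSRP1, a LIM protein of actin filaments, fell by 0.60 (adjusted p = 8.06e-04) and MYH9, the heavy chain of non-muscle myosin IIA, by 0.47 (adjusted p = 0.00315), from 574 ± 19.4 to 416 ± 23.0 CPM.

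Among other annexins, S100 proteins and galectins, 4 of 12 tested rose (33.3%) and none fell, with a median of 0.22. Of the 4, only the gene outside the 3 with the smallest adjusted p also differed by at least 2-fold, as did 1.08% of all genes upwards. Of all genes, 8.59% rose and 8.75% fell. S100A10, the partner of ANXA2, was at 17.1, 16.6 and 18.8 CPM in shNTC+Dox and 30.0, 26.0 and 27.4 CPM in shEHD1+Dox, a rise of 0.67 ± 0.10 on the log2 scale (adjusted p = 0.00291). ANXA11 rose by 0.52 (adjusted p = 0.00123) and ANXA7 by 0.33 (adjusted p = 0.0135), the last lost without shEHD1+Dox replicate 1 (adjusted p = 0.0613). With ANXA1, ANXA2 and S100A11 also above 0, LGALS1 was the only tested member of the 43 in these families below it, in the fit of all 6 libraries.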

How the data were processed

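Total RNA of 6 TC71 libraries was prepared with the TruSeq v2 kit, which keeps no strand, and sequenced as paired ends. The deposited values are whole-number counts per gene, not normalized. The study's methods name hisat2, Ensembl annotations and StringTie, whereas the submitters' processing notes name STAR 2.7.3a, hg38 and DESeq2. Which of these made the counts, and how multi-mapped reads were treated, is not given in the sources used here.

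Members and lists were chosen with earlier results of these data known. The libraries held 22711235 to 30582187 counts. Counts were TMM-scaled and tested by edgeR 4.0.16 (R 4.3.3, robust glmQLFit, glmQLFTest, no covariates) for the 16785 genes that reached 10 counts in 3 or more libraries, with Benjamini-Hochberg adjustment and thresholds of 0.05 and 2-fold. Log2 CPM used a prior count of 2. An exact permutation test of a single gene, 3 against 3 libraries, cannot go below p = 0.1. A count of 0 was read as up to 3 counts, which covers counting error only. Exon lengths and overlaps came from GENCODE 44, in which 60357 genes were found. The tests were checked on simulated data.

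Named genes were all members, with values per library for those that passed, for the 3 most abundant and for those with separate groups and a log2 fold change of at least 0.5 in size. In each other list they were up to 3 genes per direction with the smallest adjusted p, of which 1 is not reported here. S100A11 and TPM2 count among the most abundant. Values given for other members beyond this rule were chosen after they were seen. Alternatives were the size factors of DESeq2 in edgeR, no filter, a filter of 10 counts on all libraries, DESeq2 1.42.0 with its Wald test, a block for the replicate number, summed duplicate symbols, the fold tested in the model (glmTreat), a prior count of 0.5 and each library left out. For single genes, ranges of adjusted p cover the alternatives that test for any change, so the fold tested in the model is left out. Canonical transcript lengths were added after seeing the data.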

Additional observations from a re-analysis of the deposited data

How the results depend on the processing

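Among the 43 genes, the numbers past an adjusted p of 0.05 were 7 higher and 2 lower, and 6 to 7 higher and 2 lower with the size factors of DESeq2 or summed symbols. The DESeq2 Wald test gave 13 higher (with LOXL2, NT5E, TNC, ANXA1, TPM2 and RUNX2 added, and 10.5% of all genes higher against 8.59% in edgeR), and the edgeR fit without a filter on low counts gave 1 lower. Leaving out each library in turn gave 2 to 13 higher and 1 to 3 lower. The 13 were without shNTC+Dox replicate 3, and the 3 were without shEHD1+Dox replicate 1, where 2 were higher. Across these fits 8.05% to 21.8% of all genes were called in either direction, and an arm with 2 libraries shared the pooled spread. With the 2-fold threshold added, 1 gene was higher and 1 lower. These became 0 and 0 when the fold was tested in the model (39 of all genes were then called), 0 higher with 10 counts in every library, 0 lower without a filter, 2 higher with DESeq2, and 0 to 2 higher and 0 to 1 lower with each library left out. The median log2 fold change of the tested members was 0.15, 0.17 without a filter, 0.12 with 10 counts in every library and 0.09 to 0.16 with each library left out; the filter settings change which members are tested. EHD1 stayed past the threshold under every alternative that tests for any change.

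With the replicate number as a block, 3 members were higher (ACTN1, CNN3 and SPARC) and 1 lower (TGFBR2), and 0 and 0 at 2-fold, with 10.5% of all genes called against 17.3% without the block. The numbers did not pair the libraries: the correlations of deviations of same-numbered libraries were 0.07, -0.06 and -0.04, against -0.08 to 0.11 for other pairs.

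For single members, 186 values under the alternatives that keep all libraries and test for any change stayed on their side of the threshold, 8 lost it and 7 gained it. THY1 had no adjusted p in DESeq2 and was counted among those that stayed. With a library left out the numbers were 168, 27 and 9. No value that had passed turned its sign. Depth limits the 9 untested genes and ZEB1, NT5E and THY1, which had under 100 counts in every library.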

Other observations

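Other regulators of the mesenchymal and epithelial states were mostly lower among those that passed. Of 15 tested, 5 fell and 1 rose, with a median log2 fold change of -0.16. Of all genes tested, 8.75% fell and 8.59% rose, or 17.3% in either direction. CDH11, a cadherin of mesenchymal and bone-forming cells, was at 263, 266 and 245 CPM in shNTC+Dox and 103, 105 and 90.1 CPM in shEHD1+Dox, a fall of 1.37 on the log2 scale (adjusted p = 5.1e-05). RUNX3 fell by 0.60 (adjusted p = 0.00373), with the member RUNX2 at 0.45 and not past the test, and ID4 fell by 0.54 (adjusted p = 0.0054). FOXC1, a forkhead factor of mesenchyme, rose from 10.8 ± 1.08 to 19.7 ± 2.04 CPM (SD, n = 3, log2 fold change 0.87, adjusted p = 0.00275). These 4 passed with any library left out.

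Markers of EWS cells, which include targets that EWSR1-FLI1 activates, summed to 5440 to 5580 CPM in shNTC+Dox and 5290 to 5570 CPM in shEHD1+Dox. Of the 19 tested, 2 rose and 6 fell (42.1% called, against 17.3% of all genes), with a median of -0.22. BCL11B fell by 0.75 (adjusted p = 0.0012) and STEAP1 by 0.43 (adjusted p = 0.00443), while PHLDA1 rose by 0.87 (adjusted p = 0.00443) and CD99, the surface antigen used in diagnosis, by 0.33 (adjusted p = 0.0293). CD99 passed only without shNTC+Dox replicate 3 (adjusted p = 0.0312) or shEHD1+Dox replicate 2 (0.0141), with up to 0.117 without any of the others, while BCL11B, STEAP1 and PHLDA1 passed with any library left out. FLI1, whose 3′ part belongs to the fusion, was at 65.2 ± 17.1 and 55.9 ± 4.41 CPM and did not pass (log2 fold change -0.22, adjusted p = 0.409, and 0.01 without shNTC+Dox replicate 3). Of the stromal markers, COL3A1 rose by 0.89 (adjusted p = 7.32e-04) and DCN fell by 1.01 (adjusted p = 0.00778), and 5 of the 7 tested did not pass. The stromal share called was 28.6%, against 17.3% of all genes. None of the 3 epithelial markers tested passed, and their list summed to 27.4 to 32.1 CPM in shNTC+Dox and 34.4 to 40.5 CPM in shEHD1+Dox, mostly from KRT18.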
